A study of Mus musculus with 28 samples.

Results

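Genes whose products carry signals and shape the actin cytoskeleton in leukocytes were followed across dendritic cells sorted from mouse kidneys. The set was given as 33 gene symbols, some of them read in most leukocytes and others, such as Btk, in fewer lineages. Of these, 31 had a probeset mapped to that symbol alone, out of 19272 symbols with a probeset of their own on the array. All 31 passed the filter on low values that left 14346 genes for testing, while Evi2a and Lyn were not analysed here. The values are log2 array signals, so a difference of 1 is a doubling of signal, and levels of different genes are not on a common scale. No detection calls were at hand and array medians lay between 7.60 and 7.88, so a level near or under these may be background and a difference from it may be understated.

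The study asked how renal dendritic cells differ between the cortex and the medulla, in healthy kidneys and in rejected allografts. Cells were sorted by flow cytometry on surface CD45, CD11c and MHC class II, and each of 28 arrays holds the amplified RNA of the cells of 1 region of 1 mouse. Donor cells came from kidney grafts of BALB/c mice 3 days after transplantation and were sorted on CD45.2, with 3 arrays from the medulla and 3 from the cortex. Host cells that had entered the same grafts were of C57BL/6 mice and were sorted on CD45.1, again with 3 arrays from each region. The comparison groups were homeostatic, which here means healthy kidneys that were not transplanted, of BALB/c mice (4 arrays from the medulla and 4 from the cortex) and of C57BL/6 mice (4 and 4). Donor and host cells of a graft share 1 mouse number, and so do both regions of a kidney, which gives 11 mouse numbers in all. The labels name no age, sex, scan batch or cell number. With these groups, the surgery and the mismatch between donor and host cannot be told apart. For host cells, entry into the graft cannot be told apart from either, since the homeostatic cells came from kidneys that were not transplanted. The CD45 form of the homeostatic C57BL/6 mice is not given here. A difference between them and the CD45.1 hosts at Ptprc therefore cannot be told apart either.

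Most leukocyte genes of this kind are read mainly in blood-forming lineages and less in the epithelium, endothelium or stroma of a kidney. CD45, the product of Ptprc, sets the threshold of receptors that signal through tyrosine phosphorylation, kinases such as Syk and Btk pass the signal to lipid and calcium messengers, and Rac GTPases with their exchange factors turn it into actin assembly. In dendritic cells this machinery drives antigen uptake, migration and contact with T cells.

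The promoters of these genes are shown because the transcription factor PU.1, which controls many genes of myeloid and B cells, recognises a purine-rich box whose core can be written GAGGAA. RefSeq promoter windows (build GRCm38.p6, mostly upstream of the annotated start and reaching a little past it) were at hand for 26 of the 31 genes. Either strand of at least 1 window held GAGGAA in 16 of these 26 genes, which is 61.5%, against 31.3% of 27025 genes in the RefSeq table. Counted over windows, the share was 45.7% of 35 against 28.3% of 32851. The 3 windows printed first hold the box, in capitals on the printed strand (TTCCTC where it lies on the other strand), and belong to genes that fell in host medulla. They lie at chr4:130913066-130913365 (plus strand, the lysosomal membrane protein gene Laptm5), chrX:134583091-134583390 (minus strand, the kinase gene Btk) and chr1:87620062-87620361 (plus strand, the lipid phosphatase gene Inpp5d). The window of the actin-bundling gene Lcp1 at chr14:75130873-75131172 (plus strand), which fell as far as Laptm5 in host medulla, holds no match in these letters and is printed beside them. The box was in a window of the fallen genes Arhgdib, Btk, Cd53, Dock2, Inpp5d, Laptm5, Lcp2, Myo1f, Ptprc and Vav1. It was in no window of Arhgap30, Coro1a, Dock8, Fermt3, Hcls1, Ikzf1, Lcp1, Plcg2 and Ptpn6, which fell too. Of the genes that did not pass in host medulla, Cd37, Cytip, Fgr, Sash3, Syk and Was held it and Pik3cd did not. Whether the box goes with the fall was not tested. A match is a description of the sequence, not a bound site.
Laptm5: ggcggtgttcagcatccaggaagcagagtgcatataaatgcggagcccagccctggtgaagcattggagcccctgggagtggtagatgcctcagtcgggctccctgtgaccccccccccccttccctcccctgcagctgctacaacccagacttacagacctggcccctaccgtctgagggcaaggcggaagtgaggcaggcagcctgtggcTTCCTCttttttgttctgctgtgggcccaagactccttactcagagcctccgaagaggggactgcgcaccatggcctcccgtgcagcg
Btk: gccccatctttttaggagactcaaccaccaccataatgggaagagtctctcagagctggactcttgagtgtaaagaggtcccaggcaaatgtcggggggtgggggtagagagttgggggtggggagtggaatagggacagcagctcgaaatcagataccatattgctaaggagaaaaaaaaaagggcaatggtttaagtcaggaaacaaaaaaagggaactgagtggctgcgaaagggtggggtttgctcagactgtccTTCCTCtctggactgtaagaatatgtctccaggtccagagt
Inpp5d: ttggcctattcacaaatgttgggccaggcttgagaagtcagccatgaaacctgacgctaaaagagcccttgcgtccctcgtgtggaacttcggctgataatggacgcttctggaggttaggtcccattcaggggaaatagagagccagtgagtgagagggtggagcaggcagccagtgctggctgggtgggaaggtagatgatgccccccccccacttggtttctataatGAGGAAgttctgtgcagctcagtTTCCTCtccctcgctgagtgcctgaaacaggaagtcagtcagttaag
Lcp1: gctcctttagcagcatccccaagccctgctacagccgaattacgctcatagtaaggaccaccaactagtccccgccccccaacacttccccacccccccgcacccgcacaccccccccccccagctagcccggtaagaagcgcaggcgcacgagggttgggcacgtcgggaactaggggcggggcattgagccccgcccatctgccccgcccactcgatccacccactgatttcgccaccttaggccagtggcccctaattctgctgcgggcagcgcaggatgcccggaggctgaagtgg
The box begins at position -38 from the start of Laptm5 and at position 9 of Btk, and Inpp5d has one at -20 and another at 3.

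Across the 8 groups, the leukocyte genes were dimmest in host cells of graft medulla and brightest in homeostatic C57BL/6 cells. The mean log2 level of the 31 genes was 9.26 ± 0.54 in donor medulla, 9.73 ± 0.41 in donor cortex, 8.31 ± 0.42 in host medulla and 9.75 ± 0.88 in host cortex (SD, n = 3 each). In homeostatic cells it was 10.30 ± 0.22 in BALB/c medulla, 10.47 ± 0.22 in BALB/c cortex, 10.91 ± 0.05 in C57BL/6 medulla and 10.72 ± 0.10 in C57BL/6 cortex (SD, n = 4 each). The arrays of host medulla lay between 7.92 and 8.76, below every homeostatic array. Host medulla had the lowest group mean for 22 of the 31 genes, and C57BL/6 medulla the highest for 23. In bulk RNA of sorted cells, fewer leukocytes in a sample and less of these RNAs per leukocyte cannot be told apart.

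**Figure D1:**
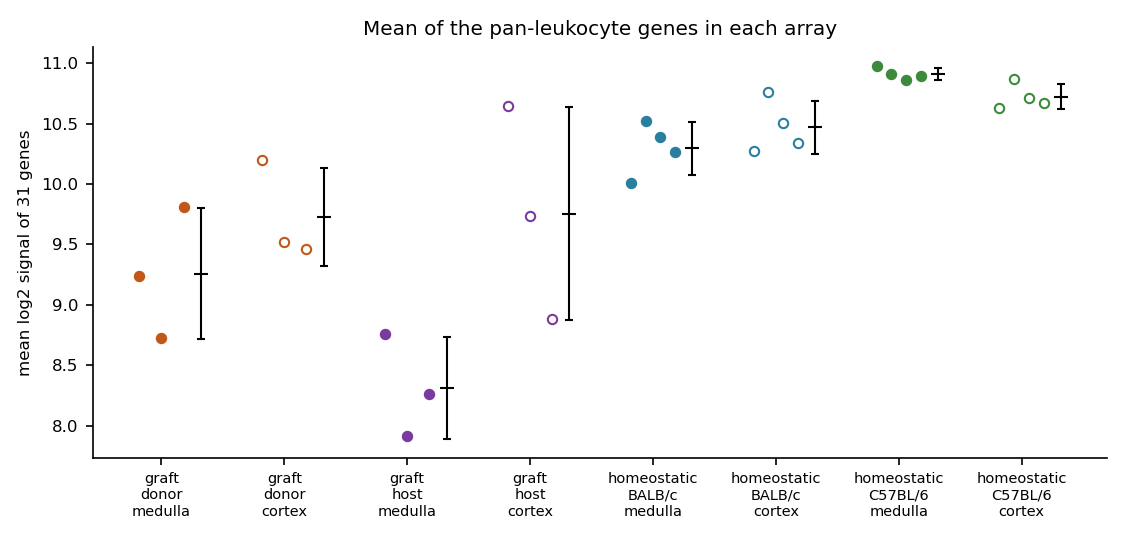
Mean log2 signal of the 31 leukocyte genes in each array (vertical axis), by group (horizontal axis, filled points for medulla and open points for cortex). Black bars give the group mean and SD; the 3 host medulla arrays, between 7.92 and 8.76, lie below all 16 homeostatic arrays, and the host cortex arrays spread between 8.88 and 10.64.

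The 3 host cortex arrays differed most among themselves, at 10.64, 9.74 and 8.88 in replicates 1, 2 and 3. The median SD of a gene within host cortex was 0.95, against 0.26 over all genes tested, and in C57BL/6 cortex it was 0.19, close to the 0.23 of all genes. Set against the matched homeostatic arrays, 30, 31 and 27 of the 31 genes lay below every C57BL/6 medulla array in host medulla replicates 1, 2 and 3, where 25.9%, 33.1% and 21.5% of all genes did. In host cortex replicates 1, 2 and 3 the numbers below every C57BL/6 cortex array were 13, 28 and 30, beside 29.5%, 28.9% and 23.6% of all genes. Donor medulla replicates 1, 2 and 3 had 19, 26 and 14 genes below every BALB/c medulla array (30.4%, 40.7% and 20.2% of all genes). Donor cortex had 7, 27 and 23 below every BALB/c cortex array (42.6%, 44.1% and 31.4% of all genes). In each of the 12 graft arrays except donor cortex replicate 1, the share of these genes below the homeostatic range exceeded that of all genes.

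**Figure D2:**
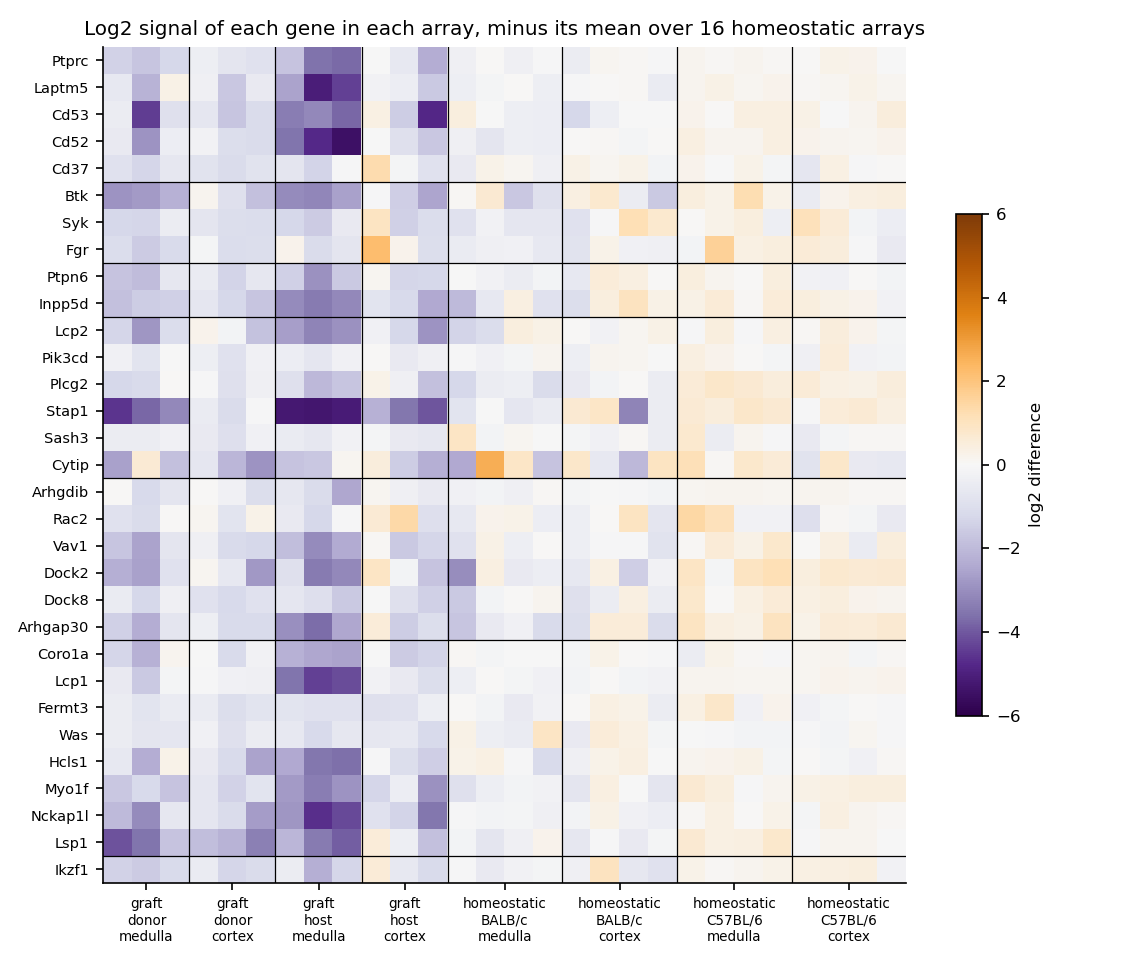
Log2 signal of each of the 31 genes (rows, grouped by role) in each of the 28 arrays (columns, by group), minus that gene's mean over the 16 homeostatic arrays; purple is lower and orange higher. Averaged over the rows, host medulla replicates 2 and 3 are the lowest columns (7.92 and 8.26), followed by donor medulla replicate 2 (8.73) and host medulla replicate 1 (8.76). Stap1 is low in graft medulla of both origins and in host cortex, and Cytip, Rac2, Fgr and Syk vary between homeostatic arrays as well.

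Host cells of graft medulla, set against homeostatic C57BL/6 medulla, had the most lowered leukocyte transcripts of the 12 comparisons. Of the 31 genes, 23 fell and none rose (limma, adjusted p under 0.05 over all genes tested), where 5.21% of all genes tested fell and 6.27% rose. The median difference of the 31 genes was -2.87, against 0.07 over all genes, and all 31 were negative. By role, 4 of 5 membrane proteins, 1 of 3 tyrosine kinases, both phosphatases, 3 of 6 adaptors and lipid signalling enzymes, 7 of 8 actin and integrin genes and the transcription factor Ikzf1 fell. None of the 23 had overlapping groups. A call already favours groups that lie apart, and the share without overlap was not counted over all genes. Leaving out any 1 of the 7 arrays kept the count between 21 and 23.

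Among membrane proteins, Ptprc, which encodes the CD45 that the sort required, measured 10.93, 9.11 and 8.97 in the 3 host medulla arrays, against 12.82, 12.75, 12.84 and 12.77 in C57BL/6 medulla. Every host array lay below every homeostatic array, and the difference was -3.12 ± 0.40 (SE, limma adjusted p = 9.9e-06). The host and homeostatic mice may differ in their form of CD45, and its part in this difference was not tested. Laptm5, a lysosomal protein of blood cells, measured 10.30, 7.79 and 8.50 in host medulla, against 13.01, 13.16, 12.98 and 13.10 in C57BL/6 medulla. Its host arrays were spread over more than 2 log2 units, with replicate 1 the highest, and its difference was -4.20 ± 0.49. Cd52, a small lipid-anchored surface glycoprotein, measured 8.80, 7.60 and 6.88 in host medulla, against 12.75, 12.51, 12.51 and 12.74 in C57BL/6 medulla. Again no host array reached the homeostatic range. The tetraspanin Cd53 fell by 3.68, and the tetraspanin Cd37 differed by -0.79 ± 0.36, which did not pass (limma adjusted p = 0.20).

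Among kinases and phosphatases, Btk, the Tec-family kinase of B cells and myeloid cells, measured 6.76, 6.63 and 7.21 in host medulla, against 10.24, 10.06, 11.05 and 10.07 in C57BL/6 medulla. The groups were separated by more than their whole ranges, at a difference of -3.49 ± 0.59 (SE). Ptpn6, the phosphatase SHP-1 that damps receptor signalling, measured 10.14, 8.65 and 9.97 in host medulla, against 12.01, 11.75, 11.61 and 12.01 in C57BL/6 medulla, a difference of -2.26 ± 0.37. Inpp5d, the lipid phosphatase SHIP-1, fell by 3.57. Syk, the kinase that reads ITAM receptors, differed by -1.21 ± 0.49 and the Src-family kinase Fgr by -1.10 ± 0.52, neither of which passed (limma adjusted p = 0.13 and 0.21).

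Stap1, an adaptor with a lipid-binding and a phosphotyrosine-binding domain, had the largest difference of all 31 genes. It measured 6.03, 5.98 and 6.11 in host medulla, against 11.89, 11.73, 12.07 and 11.91 in C57BL/6 medulla, a difference of -5.86 ± 0.62 (SE, limma adjusted p = 7.1e-07). Its host level lay under every array median, so the size of the fall may be understated. Both groups were tight, and the host arrays held the lowest Stap1 values of all 28. Lcp2, the adaptor SLP-76, measured 8.34, 7.74 and 8.03 in host medulla, against 10.91, 11.41, 10.89 and 11.39 in C57BL/6 medulla, with no overlap and a difference of -3.12 ± 0.54. Plcg2, a phospholipase that makes calcium-releasing messengers, fell by 2.21. The phosphoinositide kinase subunit Pik3cd (-0.56 ± 0.22), the SH3 adaptor Sash3 (-0.54 ± 0.26) and the cytohesin-binding scaffold Cytip (-1.76 ± 1.01) did not pass. Cytip had the largest SD of the 31 genes within any homeostatic group, 2.33 in BALB/c medulla.

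Arhgap30, a GTPase-activating protein, measured 7.40, 6.69 and 7.91 in host medulla, against 11.35, 10.76, 10.70 and 11.37 in C57BL/6 medulla. No array of host medulla came within 2 log2 units of the lowest homeostatic one, and the difference was -3.71 ± 0.49 (SE). The exchange factors Dock2 (-3.22), Vav1 (-2.87) and Dock8 (-1.51) fell as well. Arhgdib measured 12.40, 11.94 and 10.61 in host medulla, against 13.16, 13.20, 13.21 and 13.18 in C57BL/6 medulla. Its groups did not overlap, and its difference of -1.54 ± 0.31 was one of the smaller ones that passed. Rac2, the Rac GTPase of blood cells, measured 9.19, 8.48 and 9.66 in host medulla, against 11.17, 10.81, 9.51 and 9.51 in C57BL/6 medulla, and its difference of -1.14 ± 0.52 did not pass (limma adjusted p = 0.19). The Rac2 groups overlapped.

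Of the 8 actin and integrin genes, 7 fell. Lcp1, L-plastin, which bundles actin filaments, measured 9.45, 8.63 and 8.81 in host medulla, against 13.18, 13.17, 13.11 and 13.11 in C57BL/6 medulla. Its difference of -4.18 ± 0.24 (SE) had the smallest adjusted p of the set (limma, 9.4e-11), an 18.1-fold lower signal. Lsp1, an F-actin-binding protein of leukocytes, measured 9.93, 8.58 and 8.09 in host medulla, against 12.70, 12.33, 12.39 and 12.76 in C57BL/6 medulla, a difference of -3.67 ± 0.51. Both genes were separated between groups by over 2 log2 units. The WAVE complex subunit Nckap1l (-4.09), the cortactin relative Hcls1 (-3.31), the class I myosin Myo1f (-3.29), the coronin Coro1a (-2.36) and the integrin activator Fermt3 (-1.13) fell too. Was, which starts branched actin assembly through the Arp2/3 complex, differed by -0.71 ± 0.28 and did not pass (limma adjusted p = 0.12). Was averaged 7.17 in host medulla and 7.88 in C57BL/6 medulla, near the array medians, as did Sash3 (7.78 and 8.32) and Pik3cd (7.99 and 8.55), so these dim genes that did not pass may lie near background. Ikzf1, the lymphoid and myeloid transcription factor Ikaros, measured 9.68, 7.84 and 8.82 in host medulla, against 10.39, 10.20, 10.28 and 10.39 in C57BL/6 medulla, a difference of -1.53 ± 0.41. Its host replicate 1 came close to the homeostatic arrays without reaching them, and without host medulla replicate 2 the call was lost (limma adjusted p = 0.14), as those of Dock2 without replicate 2 (0.058) and Dock8 without replicate 3 (0.070) were.

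**Figure D3:**
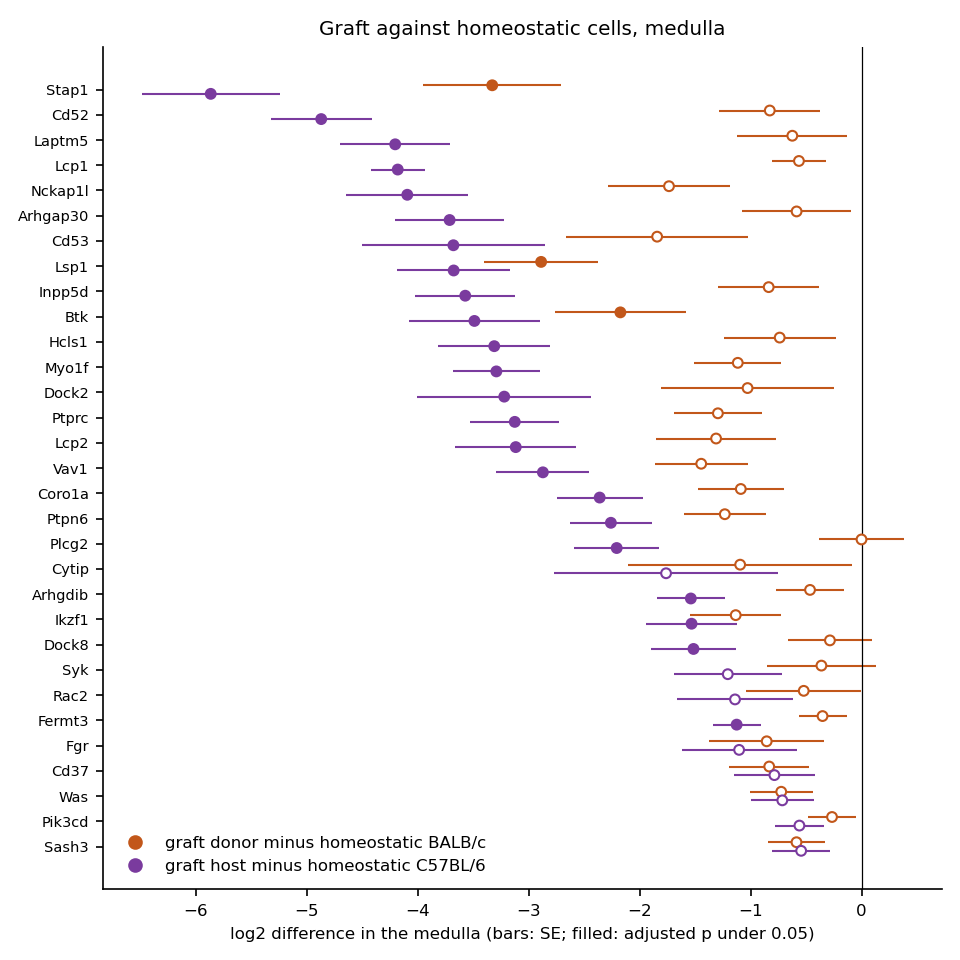
Log2 difference of each of the 31 genes in the medulla, graft donor minus homeostatic BALB/c (orange) and graft host minus homeostatic C57BL/6 (purple). Bars are standard errors and filled points passed at adjusted p under 0.05: 3 genes in donor cells (Stap1, Lsp1 and Btk) and 23 in host cells.

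Other transcripts moved with these genes in host medulla, and their part in the result was not tested. The mean level of 13 kidney epithelium genes was 10.18 ± 0.10 in host medulla (10.09 to 10.28), against 7.92 ± 0.19 in C57BL/6 medulla (7.70 to 8.11), and 11 of the 12 tested rose, among them Pax8 (3.05 ± 0.29) and Pkhd1 (3.75 ± 0.40), genes of kidney tubule cells. Of the transcripts behind the rest of the sort gate (Itgax for CD11c and 4 MHC class II genes), 5 of 5 fell, with a mean level of 9.44 ± 0.44 in host medulla against 12.61 ± 0.05 in C57BL/6 medulla. H2-Ab1, an MHC class II chain, measured 10.92, 8.87 and 8.84 in host medulla, against 13.28, 13.14, 13.27 and 13.27 in C57BL/6 medulla. Itgax measured 7.52, 7.29 and 8.16, against 10.89, 11.16, 10.95 and 11.36, with no overlap. Of macrophage and monocyte genes 9 of 10 fell, with C1qc, a complement subunit, at -4.40 ± 0.25. Of 40 further leukocyte signalling genes, 29 fell and 1 rose, with a median of -1.91. That list was written for this comparison with earlier results of these data known, and Ptpn22 and Fyb, a phosphatase and an adaptor of leukocytes, had its smallest adjusted p (-3.05 ± 0.36 and -4.68 ± 0.57).

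Many of these genes have a widely expressed relative in the same protein family, and most of the relatives did not fall with them. Over 26 pairs made of 17 leukocyte genes and 26 relatives, the host medulla minus C57BL/6 medulla difference was lower for the leukocyte gene in 25. The median relative stood at 0.28. The leukocyte genes had a median of -2.87 against 0.07 over all genes, so a typical gene would lie above most of them too. The count of pairs therefore largely restates their fall. Of the relatives 7 rose and 3 fell, beside the 6.27% and 5.21% of all genes tested. Pls3, the plastin of non-blood cells, measured 10.59, 11.56 and 9.60 in host medulla, against 6.65, 8.57, 8.15 and 6.79 in C57BL/6 medulla, a difference of 3.04 ± 0.62 (SE) beside the fall of Lcp1. Every host array was above every homeostatic one. Nckap1 (3.97), Fermt2 (3.53), Fermt1 (2.61), Cttn (1.99), Laptm4b (1.27) and Inppl1 (0.69) rose as well, beside falls of Nckap1l, Fermt3, Hcls1, Laptm5 and Inpp5d. Rac1, the GTPase found in nearly all cells, measured 11.64, 11.33 and 11.64 in host medulla, against 11.66, 11.52, 11.76 and 11.39 in C57BL/6 medulla, a difference of -0.05 ± 0.15. Its groups overlapped throughout. The relatives that fell were Vav3 (-2.29), Coro1c (-2.26) and Coro1b (-1.07).

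**Figure D4:**
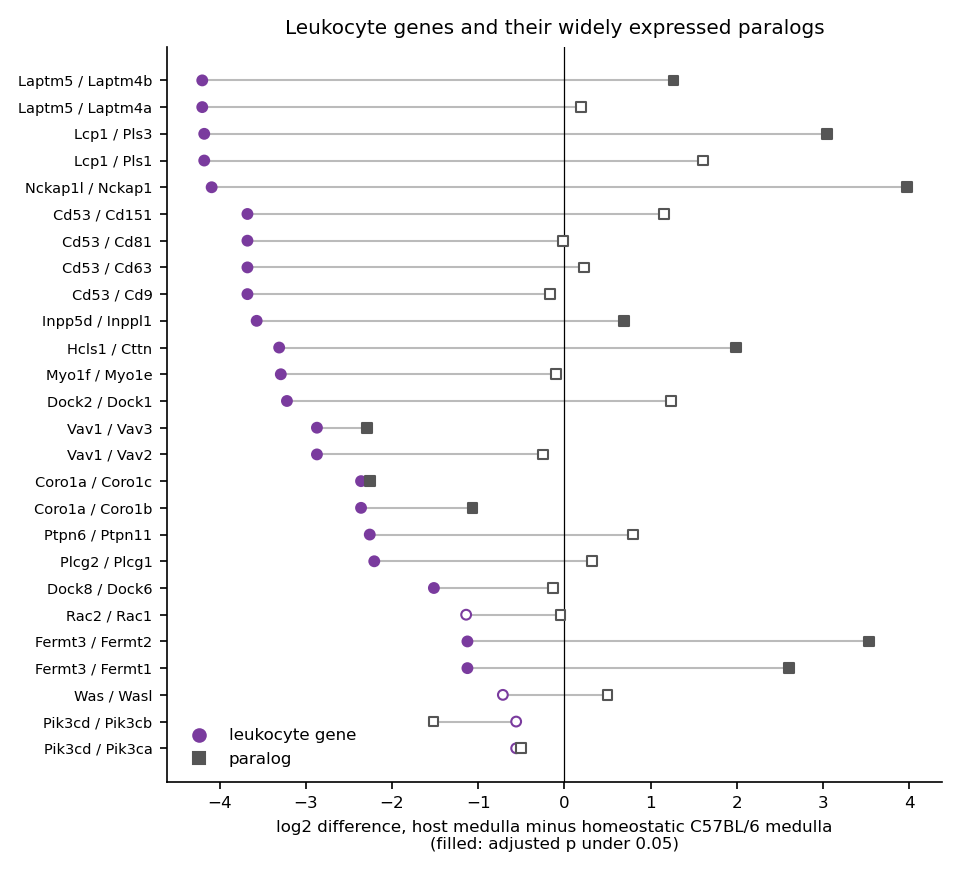
Log2 difference, host medulla minus homeostatic C57BL/6 medulla, for each leukocyte gene (purple circles) and its widely expressed relative (grey squares), joined by a line; filled symbols passed at adjusted p under 0.05. In 25 of the 26 pairs the leukocyte gene lies to the left, the exception being Pik3cd with Pik3cb.

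Host cells of graft cortex, set against homeostatic C57BL/6 cortex, had lower Stap1, Nckap1l, Myo1f and Inpp5d. These were 4 of the 31 genes, and none rose, where 2.13% and 2.01% of all genes tested did, and the median difference was -0.86 against -0.01 over all genes. Stap1 measured 9.05, 7.76 and 7.19 in host cortex, against 11.18, 11.77, 11.89 and 11.67 in C57BL/6 cortex, a difference of -3.63 ± 0.62 (SE, limma adjusted p = 0.00089). All host arrays were below all homeostatic arrays. Nckap1l (-2.04 ± 0.55), Myo1f (-1.92 ± 0.39) and Inpp5d (-1.66 ± 0.45) fell too, each with no overlap. Lcp1 measured 12.79, 12.46 and 12.00 in host cortex, against 13.11, 13.20, 13.18 and 13.22 in C57BL/6 cortex, and its difference of -0.76 ± 0.24 did not pass (limma adjusted p = 0.088) although the groups did not overlap. Rac2 (0.73 ± 0.52), Fgr (0.35 ± 0.52) and Cd37 (0.20 ± 0.36) were the 3 genes with positive differences. The count rested on single arrays: it was 15 without host cortex replicate 1 and 2 without host cortex replicate 2 or 3 or C57BL/6 cortex replicate 2 or 3. In host cortex natural killer cell genes were also at 8.67 ± 0.65, against 7.25 ± 0.15 in C57BL/6 cortex, with 3 of 5 tested higher, and epithelium genes at 9.25 ± 0.29 against 8.11 ± 0.12, with 5 of 12 higher. Sort gate transcripts were at 10.98 ± 0.67 against 12.60 ± 0.13, and macrophage and monocyte genes at 8.27 ± 0.31 against 11.54 ± 0.04. The part of these lists in the result was not tested.

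Donor cells of graft medulla, set against homeostatic BALB/c medulla, had lower levels of Stap1, Lsp1 and Btk. These were 3 of the 31 genes, and none rose, where 1.45% of all genes tested fell and 1.73% rose. Stap1 measured 6.67, 7.48 and 8.14 in donor medulla, against 10.48, 11.23, 10.57 and 10.75 in BALB/c medulla, a difference of -3.33 ± 0.62 (SE, limma adjusted p = 0.0072) with no overlap. Lsp1 measured 7.88, 8.46 and 10.23 in donor medulla, against 11.84, 11.25, 11.69 and 12.21 in BALB/c medulla, a difference of -2.89 ± 0.51. Btk measured 6.91, 7.06 and 7.61, against 9.90, 10.51, 8.14 and 8.91, a difference of -2.17 ± 0.59 (limma adjusted p = 0.045). Donor values of all 3 genes lay below every BALB/c medulla array, though donor replicate 3 was the highest donor array for each. The Btk call held without BALB/c medulla replicate 3 and was lost without any other single array of these groups. All 31 differences were negative, Plcg2 by the least (-0.00 ± 0.38), and the median was -0.84, against -0.11 over all genes.

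Ptprc, Laptm5, Lcp1 and Cd52, which fell in host medulla, did not pass in donor medulla. Ptprc measured 11.30, 10.96 and 11.42 in donor medulla, against 12.39, 12.72, 12.37 and 12.60 in BALB/c medulla, a difference of -1.29 ± 0.40 that did not pass (limma adjusted p = 0.076) although no array overlapped. Laptm5 measured 12.28, 10.67 and 13.17, against 12.49, 12.74, 12.91 and 12.51, so donor replicate 3 was above and donor replicates 1 and 2 were below all 4 BALB/c arrays. Lcp1 measured 12.47, 11.39 and 12.91 in donor medulla, against 12.65, 13.01, 12.87 and 12.76 in BALB/c medulla (-0.56 ± 0.24). Donor replicate 2 was the lowest for Laptm5, Lcp1 and Cd52, the last at 11.79, 9.48 and 11.93 in donor medulla against 12.02, 11.62, 12.00 and 11.93 in BALB/c medulla. Without donor medulla replicate 3 the count of lower genes was 7, and without BALB/c medulla replicate 3 it was 5; with the 2 groups fitted alone it was 0, with 11 at an unadjusted p under 0.05. Sort gate transcripts averaged 10.35 ± 0.61 in donor medulla against 11.51 ± 0.23 in BALB/c medulla, with 2 of 5 lower, and macrophage and monocyte genes 10.65 ± 0.73 against 11.34 ± 0.09, with 2 of 10 lower. Itgax measured 7.25, 7.59 and 7.30 in donor medulla, the lowest group mean of the 8, against 7.20, 8.68, 8.31 and 9.53 in BALB/c medulla. Epithelium genes averaged 9.91 ± 0.29 in donor medulla against 8.52 ± 0.27 in BALB/c medulla, with 6 of 12 higher, Pkhd1 by 3.09 ± 0.40. The PU.1 gene Spi1 fell by 1.65, and it is given here for this comparison alone. It was picked for its small adjusted p within its list here, so its value cannot be set beside the other comparisons. Whether it goes with the promoter box was not tested. The part of these genes and lists in the result was not tested.

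Donor cells of graft cortex, set against homeostatic BALB/c cortex, had 5 lower genes and none higher, a share set against 16.1% of all genes tested that fell and 7.91% that rose, so the members' 5 of 31 is near the background. The median difference was -0.63, against -0.13 over all genes, and all 31 were negative. Lsp1 measured 10.10, 9.83 and 8.68 in donor cortex, against 11.34, 11.90, 11.45 and 11.86 in BALB/c cortex, a difference of -2.10 ± 0.51 (SE, limma adjusted p = 0.0061) with no overlap. Hcls1 (-1.49 ± 0.51), Inpp5d (-1.40 ± 0.45, with overlapping groups), Cd37 (-1.05 ± 0.36) and Fermt3 (-0.79 ± 0.22) fell as well. Lsp1 was thus lower in donor cells of both regions. Stap1 measured 10.78, 10.16 and 11.20 in donor cortex, against 11.95, 12.11, 8.06 and 10.80 in BALB/c cortex, a difference of -0.02 ± 0.62, with BALB/c replicate 3 far below the other 3. Lcp1 was at 12.92, 12.73 and 12.71 in donor cortex, against 12.84, 13.05, 12.83 and 12.82 in BALB/c cortex. The count was 1 without donor cortex replicate 2, 2 without donor cortex replicate 3 or BALB/c cortex replicate 2 or 3, and 3 without BALB/c cortex replicate 4. After a second quantile normalization it was 10. Epithelium genes averaged 9.20 ± 0.41 in donor cortex against 7.97 ± 0.25 in BALB/c cortex, with 6 of 12 higher. Dendritic cell genes averaged 8.39 ± 0.23 against 9.58 ± 0.17, with 3 of 11 lower and 1 higher, and sort gate transcripts 11.00 ± 0.34 against 11.93 ± 0.26, with 3 of 5 lower; their part in the result was not tested.

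Within the grafts, host cells of the medulla were set against host cells of the cortex of the same mice. Of the 31 genes, 10 fell in the medulla and none rose, where 2.43% of all genes tested fell and 1.86% rose, and 19 of the 31 were lower in the medulla in all 3 mice, against 12.7% of all genes, and none was higher in all 3, against 27.8%. Cd52 measured 8.80, 7.60 and 6.88 in host medulla, against 12.31, 11.44 and 10.68 in host cortex of the same mice in the same order, a difference of -3.72 ± 0.49 (SE, limma adjusted p = 3.7e-05). Lcp1 (-3.45 ± 0.26), Laptm5 (-3.28 ± 0.53), Lsp1 (-2.58 ± 0.55), Arhgap30 (-2.38 ± 0.52) and Hcls1 (-2.33 ± 0.54) fell with no overlap between regions, and so did Inpp5d (-1.72 ± 0.48) and Arhgdib (-1.16 ± 0.33). Ptprc measured 10.93, 9.11 and 8.97 in host medulla, against 12.66, 12.11 and 10.35 in host cortex, a difference of -2.04 ± 0.43 with overlapping groups, since cortex replicate 3 lay below medulla replicate 1. Myo1f (-1.46 ± 0.42) fell with overlap too. With these groups fitted alone the count was 1, and with the mouse added as a fixed block Cd52, Lcp1 and Hcls1 passed, so it was 3, and the others did not (Laptm5 adjusted p = 0.18, Ptprc 0.22, Lsp1 0.092). The count was 5 without host cortex replicate 1 or host medulla replicate 2 and 6 without host medulla replicate 3. Other lists moved with the region: proximal tubule genes averaged 7.60 ± 0.31 in host medulla against 11.26 ± 0.60 in host cortex (13 of 15 lower, 1 higher), and epithelium genes 10.18 ± 0.10 against 9.25 ± 0.29 (4 of 12 higher). Natural killer cell genes averaged 7.11 ± 0.13 in host medulla against 8.67 ± 0.65 in host cortex (3 of 5 lower), and sort gate transcripts 9.44 ± 0.44 against 10.98 ± 0.67 (4 of 5 lower); their part in the result was not tested.

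Donor cells of the medulla differed from donor cells of the cortex of the same grafts in Stap1 alone of the 31 genes, where 1.92% of all genes tested fell and 0.627% rose. Stap1 measured 6.67, 7.48 and 8.14 in donor medulla, against 10.78, 10.16 and 11.20 in donor cortex, a difference of -3.28 ± 0.67 (SE, limma adjusted p = 0.0055) with no overlap. With these groups fitted alone the count was also 1; with the mouse added as a fixed block Stap1 did not pass (adjusted p = 0.083), and no gene of the set did, with 3 at an unadjusted p under 0.05. Proximal tubule genes averaged 7.77 ± 0.19 in donor medulla against 11.26 ± 0.51 in donor cortex (13 of 15 lower), epithelium genes 9.91 ± 0.29 against 9.20 ± 0.41 (1 of 12 higher), and Itgax 7.38 ± 0.19 against 10.02 ± 0.78 (-2.64 ± 0.60, lower); their part in the result was not tested. Btk measured 6.91, 7.06 and 7.61 in donor medulla, against 9.97, 8.91 and 7.96 in donor cortex, a difference of -1.75 ± 0.63 that did not pass (limma adjusted p = 0.19). All donor medulla values of Btk lay below all donor cortex values. Over the set, 7 of 31 genes were lower in the medulla in all 3 mice, against 15.1% of all genes, and 3 were higher, against 30.2%. In homeostatic kidneys the regions did not differ in any of the 31 genes by limma, in BALB/c (1 at an unadjusted p under 0.05) or in C57BL/6 (0 at an unadjusted p under 0.05), where 0.0488% and 0.146% of all genes tested were lower in the medulla and 0.0209% and 0.00697% higher. In all 4 mice of a strain, 4 genes of the set were lower and 1 higher in BALB/c medulla (5.06% and 5.95% of all genes), and none lower and 4 higher in C57BL/6 medulla (7.05% and 8.2% of all genes).

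Whether the regional difference itself depended on the graft was tested with interaction terms. The host medulla minus cortex difference lay below that of homeostatic C57BL/6 cells for Cd52 (-3.83 ± 0.64, limma adjusted p = 0.0025), Lcp1 (-3.42 ± 0.35), Laptm5 (-3.34 ± 0.70) and Lsp1 (-3.07 ± 0.72), 4 of 31 genes beside 0.397% of all genes tested below and 0.502% above. With these groups fitted alone and the mouse as a fixed block the count was also 4, but Laptm5 did not pass (adjusted p = 0.063). Without host cortex replicate 2 or host medulla replicate 2 the count was 2, and without host cortex replicate 3 it was 7. The Lsp1 call held without host cortex replicate 3 or host medulla replicate 1 and was lost without any other single array of these 4 groups. The donor regional difference lay apart from that of homeostatic BALB/c cells in no gene of the set by limma (1 at an unadjusted p under 0.05), where 0.397% and 0.0558% of all genes did. Stap1 had the largest term there, -3.31 ± 0.88 (limma adjusted p = 0.12), and without BALB/c cortex replicate 1 the count was 1. Between the 2 origins in the graft, the host regional difference lay below the donor one in Lcp1 alone (-2.92 ± 0.37, limma adjusted p = 0.00048), where 0.0418% of all genes lay below and 0.0349% above. With these groups fitted alone the count was 0 (5 at an unadjusted p under 0.05), and with the fixed block added it was 0 as well (6 at an unadjusted p under 0.05; Lcp1 adjusted p = 0.35). With the mouse as a random block Lcp1 and Cd52 (-3.20 ± 0.62, limma adjusted p = 0.028) lay below. It was 4 without donor medulla replicate 2 and 3 without host cortex replicate 3 or host medulla replicate 1.

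**Figure D5:**
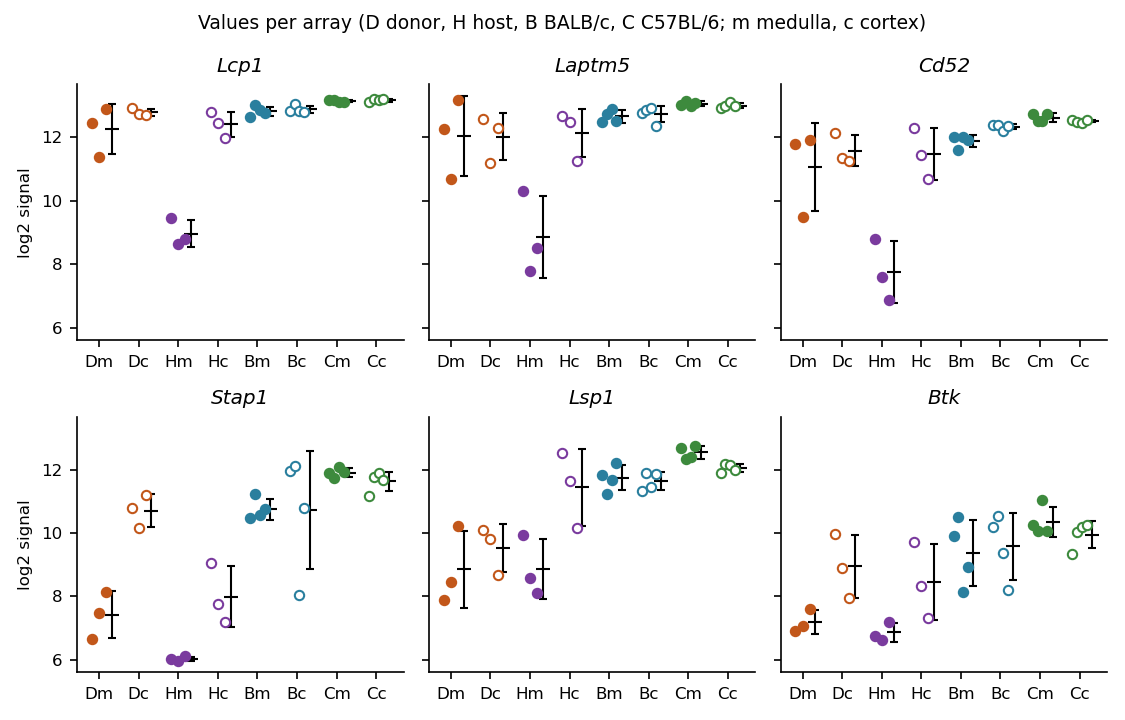
Log2 signal of Lcp1, Laptm5, Cd52, Stap1, Lsp1 and Btk in every array, by group (D donor, H host, B homeostatic BALB/c, C homeostatic C57BL/6; m medulla, c cortex), with black bars for the mean and SD. Lcp1, Laptm5 and Cd52 are low in host medulla, Stap1 and Btk are low in graft medulla of donor and host cells, and Lsp1 is low in donor cells of both regions as well. Stap1 is also low in host cortex.

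Donor and host cells of the same graft region were then compared. In the medulla, Cd52 (3.31 ± 0.49), Lcp1 (3.29 ± 0.26) and Laptm5 (3.18 ± 0.53) were higher in donor cells, 3 of 31 genes beside 0.418% of all genes tested, and none was lower, beside 0.174%. Lcp1 measured 12.47, 11.39 and 12.91 in donor medulla, against 9.45, 8.63 and 8.81 in host medulla, and no donor array overlapped a host array. Of the 31 genes, 16 were higher in donor cells in all 3 mice, against 13.5% of all genes, and 1 was lower, against 14.8%. With these groups fitted alone no gene passed (11 at an unadjusted p under 0.05), nor with the mouse added as a fixed block (12 at an unadjusted p under 0.05; Lcp1 adjusted p = 0.41). Macrophage and monocyte genes averaged 10.65 ± 0.73 in donor medulla against 8.01 ± 0.11 in host medulla (5 of 10 higher) and sort gate transcripts 10.35 ± 0.61 against 9.44 ± 0.44 (2 of 5 higher); their part in the result was not tested. The count was 6 without donor medulla replicate 2 and 5 without host medulla replicate 1. Lsp1 (-0.01 ± 0.55), Ikzf1 (-0.02 ± 0.44) and Rac2 (-0.03 ± 0.55) had nearly equal means in both origins. In the cortex no gene of the set differed by limma (4 at an unadjusted p under 0.05), where 0.369% of all genes were higher and 0.125% lower in donor cells. Stap1 was at 10.78, 10.16 and 11.20 in donor cortex and at 9.05, 7.76 and 7.19 in host cortex, which did not overlap (2.71 ± 0.67, limma adjusted p = 0.080). With the mouse as a random block Stap1 passed (2.71 ± 0.63, limma adjusted p = 0.043), the only gene of the set that did, and with the fixed block and these groups alone none did (6 at an unadjusted p under 0.05). Lsp1 ran the other way, at 10.10, 9.83 and 8.68 in donor cortex against 12.54, 11.65 and 10.15 in host cortex (-1.91 ± 0.55, limma adjusted p = 0.22). Without host cortex replicate 1 or replicate 3, 1 gene passed. In all 3 mice, 5 genes were higher and 5 lower in donor cortex, against 12.7% and 12.1% of all genes. Strain and origin cannot be told apart here, since all donor cells were BALB/c and all host cells C57BL/6.

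Between homeostatic strains, BALB/c medulla had lower Arhgap30 (-1.59 ± 0.45) and Plcg2 (-1.43 ± 0.35) than C57BL/6 medulla, 2 of 31 genes beside 2.63% of all genes tested lower and 6.48% higher. Arhgap30 measured 8.67, 9.82, 10.12 and 9.23 in BALB/c medulla, against 11.35, 10.76, 10.70 and 11.37 in C57BL/6 medulla, with no overlap. The call is close to the threshold (limma adjusted p = 0.037). The count was 0 without BALB/c medulla replicate 1 or 4 or C57BL/6 medulla replicate 2 or 3, 1 without C57BL/6 medulla replicate 1 or 4, and 3 without BALB/c medulla replicate 3. In the cortex none of the 31 genes passed (limma, 0 at an unadjusted p under 0.05), where 1.94% of all genes were lower and 7.96% higher in BALB/c.

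Each array correlated with its own group at a mean of 0.848 to 0.950, apart from BALB/c medulla replicate 1 at 0.788. Proximal tubule genes averaged 11.26 in graft cortex of donor and of host cells (SD 0.51 and 0.60), against 9.18 ± 0.81 in BALB/c and 10.25 ± 0.65 in C57BL/6 cortex. Macrophage and monocyte genes averaged 8.01 ± 0.11 in host medulla and 8.27 ± 0.31 in host cortex, against 11.58 ± 0.03 and 11.54 ± 0.04 in the matching C57BL/6 groups. Of these macrophage genes 9 of 10 fell in host cells of either region.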

How the data were processed

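Total RNA of sorted cells was amplified with the Nugen Ovation One-Direct System and hybridised to 28 Affymetrix arrays, per the labels' protocols. The deposited values are log2 signals made by the authors with RMA and oligo, per the submitters' processing notes; a version was not at hand. Of 22549 probesets, the 20646 with 1 symbol were kept, with the brightest probeset per gene by its mean over 28 arrays. The filter on low values kept 14346 genes that exceeded the 40th percentile of the array on 3 or more arrays. limma 3.58.1 in R 4.3.3 fitted the 8 group means jointly, with 20 degrees of freedom left for the spread. Tests were 2-sided, with Benjamini-Hochberg adjustment over all genes tested and a call at an adjusted p under 0.05. There were 12 comparisons of groups and 3 interactions. The code was tested on simulated data. The number of arrays limits the precision.

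Same-numbered arrays come from the same mouse, which pairs regions and origins. The mean correlation of their residuals was 0.155 between regions of donor cells, 0.106 between regions of host cells, 0.171 between origins in the medulla and 0.220 between origins in the cortex, and it was -0.006 and -0.003 between regions in BALB/c and C57BL/6 kidneys. Alternatives were the mouse as a random or fixed block, other filters, a second quantile normalization, the mean over a gene's probesets, groups fitted alone, array weights and each array left out. The genes and lists were chosen with earlier results of these data known. Values in every array are given for Ptprc, the brightest gene of each role, the largest difference called in each comparison and Rac2 beside Rac1; other genes and relatives are given by differences. The count of a further role is not reported here.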

Additional observations from a re-analysis of the deposited data

Results flagged for a closer look

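In homeostatic BALB/c cortex, the Lcp1 level of replicate 2 was 13.05, apart from the other 3 arrays at 12.82 to 12.84. In homeostatic C57BL/6 cortex, the Ikzf1 level of replicate 4 was 9.91, apart from the others at 10.50 to 10.59. These were 2 of 56 checks for a sample far from its group, and chance gives about 1 in 20. Each check took 1 gene, or the mean of the set, in 1 homeostatic group. Graft groups, with 3 arrays each, were not checked in this way.

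The regional difference of host cells differed from that of homeostatic C57BL/6 cells in 4 genes, by -3.83 for Cd52, -3.42 for Lcp1, -3.34 for Laptm5 and -3.07 for Lsp1 (limma interaction terms, log2). It differed from that of donor cells by -2.92 for Lcp1.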

How the results depend on the processing

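Of the 56 differences of single genes that passed, none changed sign over 824 refits, 695 kept the call and 129 lost it. With every single array left out, 37 kept it and 19 lost it at least once. A sign could change only with the second quantile normalization, array weights or an array left out. The mouse blocks, the filters, the mean over probesets and groups fitted alone keep the same difference of group means. The 8 group means of the set moved by less than 1 SD in all 24 alternatives. Of these, only the second quantile normalization could move a mean. Averaging over probesets or keeping only genes above the filter left it unchanged, since each of the 31 genes had 1 probeset and passed the filter. Counts of genes called that moved are grouped by setting. With the mouse as a random block, donor against host cortex had 1 and the host-minus-donor regional term 2. With the replicate block fixed by mouse and the groups fitted alone, 2 choices changed together, donor medulla against cortex had 0, host medulla against cortex 3, donor against host medulla 0 and the host-minus-donor regional term 0; the random or fixed block moved no other count by over 1.5 times. A stricter filter gave 1 for BALB/c against C57BL/6 medulla. A second quantile normalization gave 6 for donor against BALB/c medulla, 10 for donor against BALB/c cortex and 1 for BALB/c against C57BL/6 medulla. Groups fitted alone gave 1 for host medulla against cortex, 0 for donor against BALB/c medulla, 0 for donor against host medulla, 2 for donor against BALB/c cortex, 1 for host against C57BL/6 cortex, 1 for BALB/c against C57BL/6 cortex and 0 for the host-minus-donor regional term. Array weights gave 4 for donor medulla against cortex, 1 for BALB/c against C57BL/6 medulla, 11 for host against C57BL/6 cortex, 1 for donor against host cortex, 1 for the donor-minus-BALB/c regional term, 7 for the host-minus-C57BL/6 regional term and 3 for the host-minus-donor regional term. Leaving out 1 array at a time gave 21 to 23 for host against C57BL/6 medulla, 5 to 14 for host medulla against cortex, 1 in every case for donor medulla against cortex, 2 to 7 for donor against BALB/c medulla, 1 to 7 for donor against BALB/c cortex, 2 to 15 for host against C57BL/6 cortex, 3 to 6 for donor against host medulla, 0 to 1 for donor against host cortex, 0 to 3 for BALB/c against C57BL/6 medulla, 0 to 1, 2 to 7 and 1 to 4 for the donor-minus-BALB/c, host-minus-C57BL/6 and host-minus-donor regional terms, and 0 elsewhere. The cause of these shifts was not tested; fits on fewer arrays have fewer residual degrees of freedom.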

Other observations

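Marker genes of other cell types were read in host medulla against homeostatic C57BL/6 medulla as well. Of 11 dendritic cell genes tested, 5 fell and 1 rose, among them the lectins Clec10a (-3.20 ± 0.48, SE) and Cd209a (-4.04 ± 0.64), which fell. Of 5 B cell genes 3 fell, Cd22, an inhibitory receptor, by 0.75 (limma adjusted p = 0.0061). By limma none of 8 T cell, 5 natural killer cell, 4 neutrophil, 10 endothelium and 8 fibroblast and pericyte genes passed, with 1, 0, 1, 3 and 1 at an unadjusted p under 0.05. Of 14 genes of the loop of Henle, distal tubule and collecting duct 5 rose, among them Aqp4, a water channel (2.00 ± 0.17). Of 15 proximal tubule genes 2 fell and 1 rose: Gatm, an enzyme of creatine synthesis, fell by 5.83 and the water channel gene Aqp1 rose by 3.55.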
